A study of Mus musculus with 6 samples.

Results

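The proteasome genes of mouse liver were examined in 6 polyA RNA libraries. All genes of the deposited table whose names begin with Psma, Psmb, Psmc, Psmd, Psme, Psmf or Psmg and a digit were taken, without names holding a hyphen, which gave 50 of 55573 genes. The genes Psmb8, Psmb9, Psmb10, Psme1 and Psme2, which interferon induces, were treated as the immunoproteasome. The libraries came from liver of mice of the third generation. Those labelled p21TKO (3 libraries) came from mice without p21 (Cdkn1a, a cyclin-dependent kinase inhibitor), without mTR (Terc, the RNA template of telomerase) and without the helicase gene Wrn, which were described as already progeroid. Those labelled DKO (3 libraries) came from mice without mTR and Wrn, so both groups share these losses and differ by p21. The stated question was which pathways change with the loss of p21. The titles also carry the code 2M, which the labels do not explain, and neither an age nor a sex is labelled.

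The proteasome is the barrel-shaped protease that degrades proteins tagged with ubiquitin. Its 20S core consists of stacked rings of alpha and beta subunits, and the beta subunits encoded by Psmb6, Psmb7 and Psmb5 carry the active sites. A 19S cap of ATPases and other subunits recognises, unfolds and feeds in the substrate. Interferon gamma and other inflammatory signals induce Psmb9, Psmb10 and Psmb8, whose products take the places of those encoded by Psmb6, Psmb7 and Psmb5, and the activator genes Psme1 and Psme2. The resulting immunoproteasome cuts peptides for presentation on MHC class I. Hepatocytes mainly hold the constitutive form, and cells of the immune system the inducible form.

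Values are FPKM (fragments scaled by exon length and sequencing depth), so levels can be compared between genes per length. Depth, read back from the FPKM scaling, was 19363285, 22954754 and 27061292 reads in p21TKO replicates 1 to 3 and 24027505, 21516837 and 22223529 reads in DKO replicates 1 to 3. The hepatocyte marker Alb stood between 24412 and 37503 FPKM in every library. Cdkn1a stood at 1.41, 11.1 and 6.50 FPKM in p21TKO, against 0.761, 1.79 and 0.405 FPKM in DKO, so its transcripts do not check the deletion and every direction below rests on the labels. Y-linked transcripts were present in p21TKO replicate 1 and DKO replicates 2 and 3 and absent in p21TKO replicates 2 and 3 and DKO replicate 1. Each group thus holds libraries of both kinds, so its libraries did not all come from the same animal. Whether every replicate was a separate animal is not labelled, and part of the spread that p-values measure may be technical. In whole tissue, fewer cells of a type and less RNA per cell cannot be told apart.

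No proteasome gene passed the test between p21TKO and DKO, and the signs of the differences were mostly positive for the constitutive subunits and negative for the immunoproteasome genes. Of 31 tested subunits of the 20S core and the 19S cap, 29 had higher values in p21TKO (median log2 difference 0.33), where 50.2% of all 9538 tested genes did. All 5 immunoproteasome genes had lower values (median -0.44), against 49.8% of all tested genes, and the median of all tested genes was 0.00. The test was limma on log2(FPKM + 1) with Benjamini-Hochberg adjustment over all tested genes, and 0 of 45 tested members were called at an adjusted p under 0.05 (0.0734% of all tested genes were), and the limma adjusted p of members ran between 0.523 and 0.974. Only Psmd4 and Psmd8, 2 members, had an unadjusted p under 0.05, as did 9.38% of all tested genes. Limma voom on recovered reads also called 0 members, with 6 at an unadjusted p under 0.05. For 14 of the 31 constitutive subunits all p21TKO libraries lay above all DKO libraries, as for 6.93% of all tested genes, and for 0 they lay below, as for 8.49%.

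**Figure D1:**
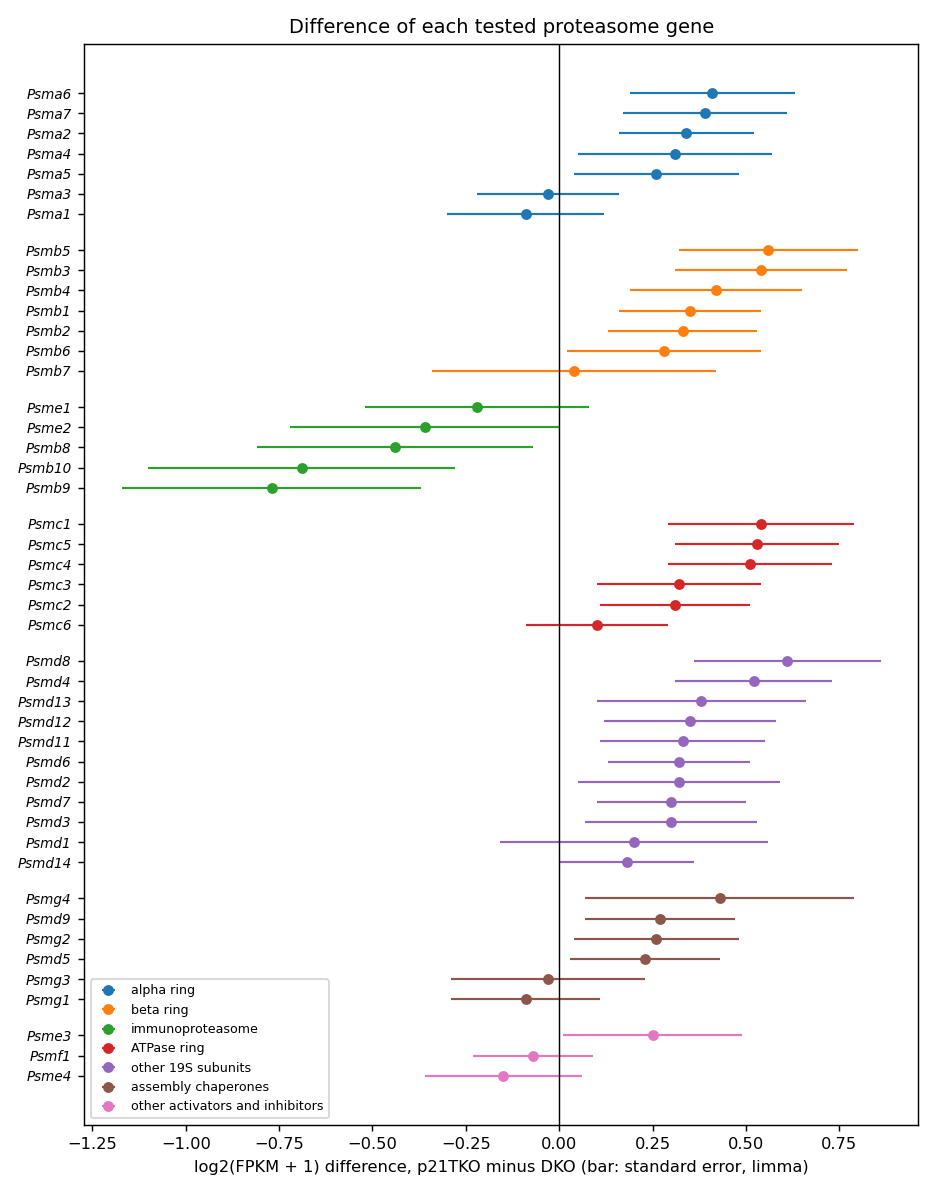
Difference between libraries labelled p21TKO and DKO for the 45 tested proteasome genes. Each point is the limma log2(FPKM + 1) difference, p21TKO minus DKO (x axis), and bars are standard errors, with genes grouped by role (y axis, colours). The constitutive subunits lie mostly right of 0, from -0.09 (Psma1) to 0.61 (Psmd8), and the immunoproteasome genes lie left of it, from -0.77 (Psmb9) to -0.22 (Psme1).

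The promoters of genes that the 2 directions turn on are shown first. RefSeq start sites (GRCm38.p6) gave windows of 300 bases, most of it upstream of the start, for 42 of the 50 members. Each window was searched on both strands for the interferon-stimulated response element (GAAA, any 2 bases, GAAA), the gamma-activated sequence (TTCNNNGAA), the core of the antioxidant response element that NRF1 and NRF2 bind (TGACNNNGC) and the cell cycle homology region bound by DREAM and MMB complexes (TTTGAA). Capitals mark a match. Psmb8 and Psme1 are shown as immunoproteasome genes with a match, Psmb9 as the immunoproteasome gene with the lowest log2 difference, Psmb5 as the constitutive partner of Psmb8, and Psmd8 as the member with the highest log2 difference.
Psmb8, chr17:34197945-34198244, plus strand: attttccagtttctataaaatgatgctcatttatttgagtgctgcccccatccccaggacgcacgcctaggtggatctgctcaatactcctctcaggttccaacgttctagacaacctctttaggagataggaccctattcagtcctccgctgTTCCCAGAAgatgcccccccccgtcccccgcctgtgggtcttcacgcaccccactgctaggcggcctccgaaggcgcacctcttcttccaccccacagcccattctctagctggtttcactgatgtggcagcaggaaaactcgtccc
Psmb9, chr17:34187281-34187580, minus strand: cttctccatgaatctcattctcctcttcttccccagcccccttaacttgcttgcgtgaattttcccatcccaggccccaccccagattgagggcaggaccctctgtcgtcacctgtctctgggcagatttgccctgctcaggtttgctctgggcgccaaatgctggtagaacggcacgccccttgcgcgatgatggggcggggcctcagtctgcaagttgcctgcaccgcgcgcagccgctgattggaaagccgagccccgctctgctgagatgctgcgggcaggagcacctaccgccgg
Psme1, chr14:55578244-55578543, plus strand: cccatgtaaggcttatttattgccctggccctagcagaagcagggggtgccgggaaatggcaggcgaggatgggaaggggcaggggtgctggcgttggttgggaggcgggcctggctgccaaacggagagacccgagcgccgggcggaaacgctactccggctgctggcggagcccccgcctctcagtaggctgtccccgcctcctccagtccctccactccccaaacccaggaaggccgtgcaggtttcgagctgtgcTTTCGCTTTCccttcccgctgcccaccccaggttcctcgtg
Psmb5, chr14:54617946-54618245, minus strand: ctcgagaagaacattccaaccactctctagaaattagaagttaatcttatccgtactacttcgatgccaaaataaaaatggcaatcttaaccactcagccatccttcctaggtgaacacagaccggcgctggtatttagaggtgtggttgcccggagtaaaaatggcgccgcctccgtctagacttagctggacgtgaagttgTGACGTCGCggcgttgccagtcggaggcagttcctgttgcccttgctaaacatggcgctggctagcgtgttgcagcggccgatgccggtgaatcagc
Psmd8, chr7:29180624-29180923, minus strand: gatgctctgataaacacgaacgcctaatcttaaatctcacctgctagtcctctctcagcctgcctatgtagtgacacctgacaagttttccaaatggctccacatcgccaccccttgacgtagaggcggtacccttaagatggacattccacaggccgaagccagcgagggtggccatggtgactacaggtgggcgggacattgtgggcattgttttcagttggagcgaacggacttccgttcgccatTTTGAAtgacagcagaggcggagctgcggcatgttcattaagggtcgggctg

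Among the immunoproteasome windows, Psme1 held the interferon-stimulated response element on the strand opposite to the one printed and Psmb8 the gamma-activated sequence, and those of Psmb9, Psmb10 and Psme2 held no match to any of the 4 motifs. The interferon-stimulated response element was found in 5 of 42 members (3.44% of 32851 windows of all genes), the others being the constitutive subunits Psmb3 and Psmd4 and the assembly chaperone genes Psmd9 and Psmg4. The gamma-activated sequence was found in 3 members (8.30% of all windows), the others being the constitutive subunit Psmd2 and the assembly chaperone gene Psmg1. The antioxidant core was found in 4 of 26 constitutive subunits with a window, namely Psmb5, Psmb6, Psmc6 and Psmd12, and in 12.39% of all windows. TTTGAA was found in 2 of the 26, Psmd1 and Psmd8, and in 17.89% of all windows. These matches are letters in a window and not shown binding sites. By the gene coordinates used here, the windows of Psmb8, Psmb9 and Psme1 lie inside the gene. The sequence upstream of the outermost annotated start of these genes was therefore not searched.

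Immunoproteasome transcripts were low in p21TKO replicates 2 and 3, and in p21TKO replicate 1 they were within or above the DKO range. Psmb8 (chromosome 17, 34197721 to 34201454, GRCm38), which encodes the inducible chymotrypsin-like subunit beta5i, stood at 12.01, 6.84 and 4.13 FPKM in p21TKO replicates 1 to 3, against 12.4, 10.9 and 7.08 FPKM in DKO replicates 1 to 3. Replicates 2 and 3 of p21TKO lay below every DKO library and replicate 1 lay among them, so the groups overlap (log2 difference -0.44, SE 0.37, limma adjusted p = 0.689). Psmb9 (chromosome 17, 34181987 to 34187764), which encodes beta1i, had 6.87, 3.08 and 1.69 FPKM in p21TKO, against 8.39, 6.64 and 4.97 FPKM in DKO. Its p21TKO mean was 0.58 times the DKO mean, with the same libraries lowest (log2 difference -0.77, SE 0.40, limma adjusted p = 0.555). Psmb10 (chromosome 8, 105935735 to 105938444), which encodes beta2i, stood at 33.95, 16.2 and 11.5 FPKM in p21TKO, against 33.6, 36.9 and 23.01 FPKM in DKO. Again p21TKO replicate 1 lay within the DKO range and the other p21TKO libraries were below it (log2 difference -0.69, SE 0.41, limma adjusted p = 0.587).

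The activator genes behaved alike with smaller differences. Psme1 (chromosome 14, 55578123 to 55581529), which encodes PA28 alpha, stood at 55.8, 34.5 and 32.2 FPKM in p21TKO, against 43.2, 58.5 and 38.9 FPKM in DKO (log2 difference -0.22, SE 0.30, limma adjusted p = 0.807). Psme2 (chromosome 14, 55587441 to 55591113), its partner PA28 beta, stood at 35.6, 13.8 and 20.8 FPKM in p21TKO, against 33.1, 29.3 and 23.4 FPKM in DKO (log2 difference -0.36, SE 0.36, limma adjusted p = 0.725). For all 5 genes p21TKO replicates 2 and 3 were below the lowest DKO library, and in 4 of them replicate 3 was the lowest of all 6, with Psme2 lowest in replicate 2. Single libraries set the size of these differences. Without p21TKO replicate 1 the log2 differences were -0.78 for Psmb8, -1.19 for Psmb9, -1.11 for Psmb10, -0.46 for Psme1 and -0.70 for Psme2, with a median of -0.78. Without p21TKO replicate 3 they were -0.11 for Psmb8, -0.41 for Psmb9, -0.36 for Psmb10 and -0.07 for Psme1. That of Psme2 was -0.05 without p21TKO replicate 2, and that of Psme1 was -0.12 without p21TKO replicate 2, -0.05 without DKO replicate 2 and -0.34 without DKO replicate 3. For Psmb8 it was -0.28 without DKO replicate 1. In DKO the 5 genes varied among themselves too, with DKO replicate 3 lowest of that group for each.

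**Figure D2:**
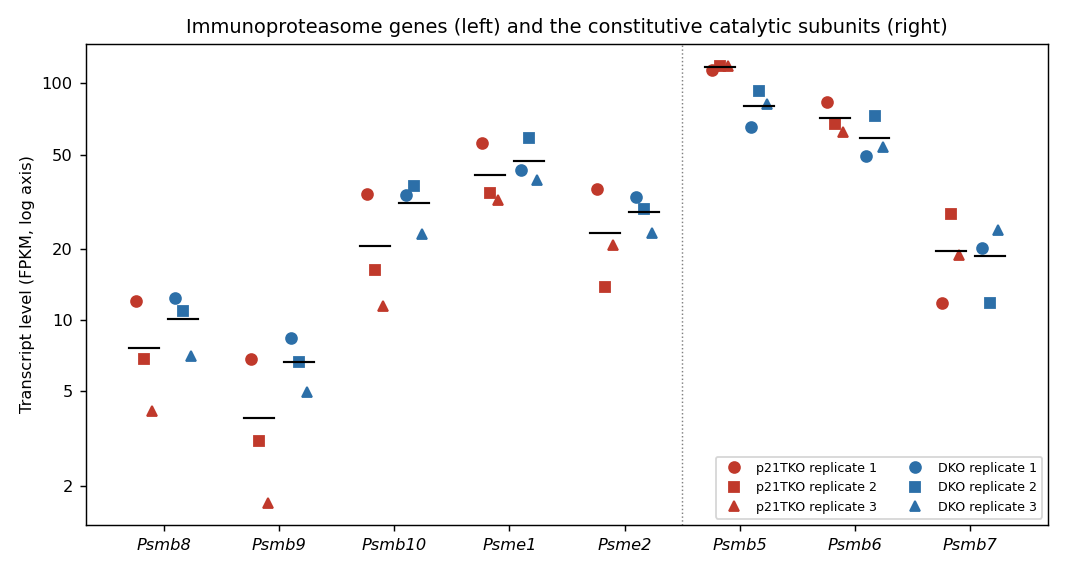
FPKM on a log axis (y axis) of the 5 immunoproteasome genes and of the constitutive catalytic subunits Psmb5, Psmb6 and Psmb7 (x axis) in each library. Symbols are replicates 1 to 3, red for p21TKO and blue for DKO, and lines are group means. For the 5 genes on the left, p21TKO replicates 2 and 3 lie under all DKO libraries while replicate 1 does not, and for Psmb5 all p21TKO libraries (114 to 118 FPKM) lie above DKO (65.3 to 92.9 FPKM).

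Psmb8 and Psmb9 neighbour each other and the peptide transporter gene Tap1 in the MHC on chromosome 17, 5.11 and 5.09 Mb from the start of Cdkn1a, and Psmb1 lies 13.62 Mb from it. Psmb10, Psme1 and Psme2, on chromosomes 8 and 14, lie apart from it, and their 2 lowest libraries were again p21TKO replicates 2 and 3. Exons of Psmb9 overlap exons of Tap1 on the opposite strand over 212 bases (5.8% of its exon length), and those of Psmb8 overlap Gm20496 over 498 bases (14.7%). The sources used here do not give strandedness, so reads from these stretches cannot be assigned.

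The difference of the immunoproteasome genes depended on which libraries were set against each other. Among libraries with Y-linked transcripts, p21TKO replicate 1 exceeded the mean of DKO replicates 2 and 3 for 5 of 5 genes, with a median log2 difference of 0.22. Among those without, p21TKO replicates 2 and 3 were on average below DKO replicate 1 for 5 of 5, with a median of -1.08. With a term for Y-linked transcripts in the fit, the median was -0.34. The constitutive subunits had medians of 0.15 (21 of 31 higher) and 0.51 (29 of 31 higher) in the same order. Each of these comparisons has 1 library in an arm and was not tested.

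The balance of inducible to constitutive catalytic subunits was lower on average in p21TKO for each of the 3 active sites. For beta5, Psmb8 made up 9.53, 5.48 and 3.37% of the summed Psmb8 and Psmb5 FPKM in p21TKO replicates 1 to 3, against 16.0, 10.5 and 8.0% in DKO replicates 1 to 3. The p21TKO replicate 1 value lay within the DKO range, and the log2 ratio differed by -0.99 (exact permutation test over libraries, two-sided p = 0.2). For beta1, Psmb9 made up 7.59, 4.36 and 2.64% of Psmb9 and Psmb6 in p21TKO, against 14.5, 8.37 and 8.47% in DKO. Here the groups did not overlap, and the log2 ratio was -4.02 ± 0.57 in p21TKO and -2.96 ± 0.47 in DKO (SD, n = 3 each), a difference of -1.05 with an exact permutation p = 0.1. That is the smallest p that 3 libraries against 3 allow, and it was 0.3 after adjustment over the 3 ratios (exact permutation test, two-sided). For beta2, Psmb10 made up 74.1, 36.7 and 37.9% of Psmb10 and Psmb7 in p21TKO, against 62.5, 75.8 and 49.0% in DKO (difference of the log2 ratio -0.73, exact permutation p = 0.5). Only at beta2 did the inducible gene reach the level of its constitutive partner. Within libraries with Y-linked transcripts the 3 differences of the log2 ratio were 0.02, -0.19 and 0.69, and within those without they were -1.93, -1.89 and -1.42.

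**Figure D3:**
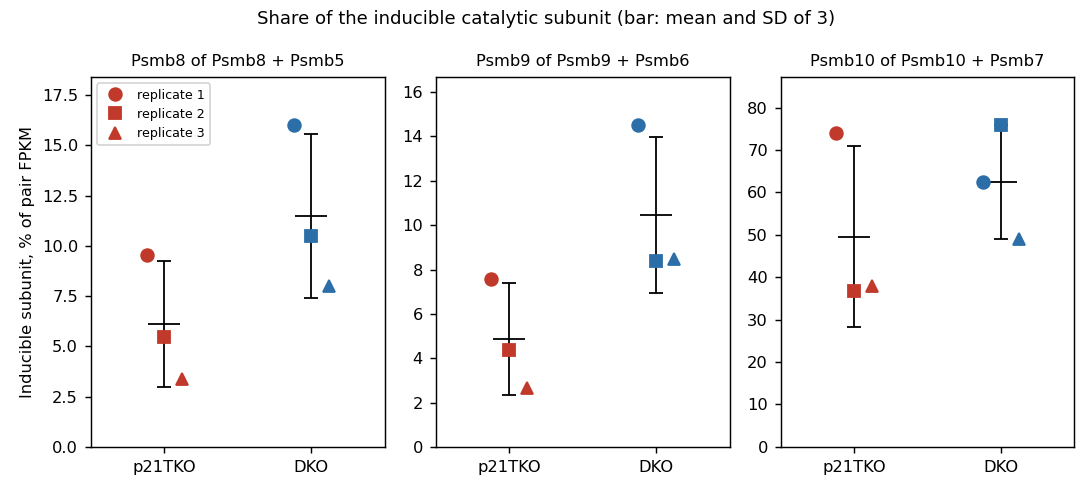
Inducible subunit as a percentage of the summed FPKM of each inducible and constitutive pair (y axis, each panel from 0 with its own scale), for beta5, beta1 and beta2. Symbols are replicates 1 to 3, red for p21TKO and blue for DKO, and bars are mean and SD of 3. The Psmb9 share lies between 2.64 and 7.59% in p21TKO, below 8.37 to 14.5% in DKO, and the other pairs overlap.

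Among the beta ring genes, Psmb5, the constitutive chymotrypsin-like subunit (chromosome 14, 54614119 to 54618022), was the most abundant member and stood at 114, 118 and 118 FPKM in p21TKO, against 65.3, 92.8 and 81.4 FPKM in DKO. The p21TKO libraries lay within a narrow range above all DKO libraries (log2 difference 0.56, SE 0.24, limma adjusted p = 0.523). Psmb3, a structural beta subunit (chromosome 11, 97703399 to 97713500), had 51.3, 45.8 and 54.5 FPKM in p21TKO, against 28.8, 42.9 and 32.5 FPKM in DKO, again with no overlap (log2 difference 0.54, SE 0.23, limma adjusted p = 0.523). Psmb6, the caspase-like subunit, stood at 83.6, 67.6 and 62.2 FPKM in p21TKO, against 49.4, 72.7 and 53.7 FPKM in DKO, and the groups overlapped (log2 difference 0.28, SE 0.26, limma adjusted p = 0.707). Psmb7, the trypsin-like subunit, stood at 11.8, 27.99 and 18.8 FPKM in p21TKO, against 20.2, 11.8 and 23.9 FPKM in DKO. Its lowest libraries were p21TKO replicate 1 and DKO replicate 2, and its groups had nearly the same mean (log2 difference 0.04, SE 0.38, limma adjusted p = 0.974). Leaving out 1 library gave log2 differences of -0.24 to 0.34 for Psmb7 and 0.16 to 0.45 for Psmb6, the lowest for Psmb6 without p21TKO replicate 1 and the highest without DKO replicate 2. Psmb1, Psmb2 and Psmb4, which complete the ring, had log2 differences of 0.35, 0.33 and 0.42 and groups that did not overlap, so this held for 5 of the 7 tested beta genes.

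The alpha ring, which gates entry to the core, had 5 of 7 tested genes higher in value and 3 with groups that did not overlap. Psma6 (chromosome 12, 55384222 to 55418454) stood at 74.5, 83.4 and 87.2 FPKM in p21TKO, against 56.1, 58.6 and 68.9 FPKM in DKO (log2 difference 0.41, SE 0.22, limma adjusted p = 0.568). Psma2 (chromosome 13, 14613240 to 14674236) stood at 21.8, 20.6 and 25.9 FPKM in p21TKO, against 16.7, 18.1 and 18.5 FPKM in DKO (log2 difference 0.34, SE 0.18, limma adjusted p = 0.573). In both genes every p21TKO library was above every DKO library, as in Psma7. Psma1 (log2 difference -0.09) and Psma3 (log2 difference -0.03) were the only tested core or cap genes with a log2 difference under 0. Mean levels in the alpha ring ran from 15.7 to 71.5 FPKM over the 6 libraries, although the assembled ring holds its subunits in equal numbers.

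All 6 ATPase genes of the 19S base, whose products unfold substrates, had higher values, with a median log2 difference of 0.42. Psmc5 (chromosome 11, 106256154 to 106263120), the subunit Rpt6, stood at 55.9, 59 and 60.5 FPKM in p21TKO, against 35.98, 48.98 and 37.1 FPKM in DKO. Its lowest p21TKO library was above the highest DKO library (log2 difference 0.53, SE 0.22, limma adjusted p = 0.523). Psmc4 (chromosome 7, 28041707 to 28050101), the subunit Rpt3, stood at 33.5, 40.2 and 45.6 FPKM in p21TKO, against 23.7, 31.7 and 27.3 FPKM in DKO and was likewise without overlap (log2 difference 0.51, SE 0.22, limma adjusted p = 0.527). Psmc1 (log2 difference 0.54) and Psmc3 (log2 difference 0.32) had groups that did not overlap, and Psmc2 (log2 difference 0.31) and Psmc6 (log2 difference 0.10) overlapped.

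The 11 other 19S subunits, which bind and remove ubiquitin and hold the cap together, all had higher values (median log2 difference 0.32). Psmd8 (chromosome 7, 29174188 to 29180701), the lid subunit Rpn12, stood at 32.05, 47.3 and 52.8 FPKM in p21TKO, against 25.5, 27.8 and 30.4 FPKM in DKO, 1.58 times the DKO mean. All p21TKO libraries exceeded DKO (log2 difference 0.61, SE 0.25, limma adjusted p = 0.523, unadjusted p = 0.0463). Psmd4 (chromosome 3, 95032694 to 95042614), which encodes the ubiquitin receptor Rpn10, stood at 33.3, 32.2 and 33.02 FPKM in p21TKO, against 19.1, 27.9 and 21.5 FPKM in DKO. The p21TKO libraries were almost equal and above the whole DKO range (log2 difference 0.52, SE 0.21, limma adjusted p = 0.523, unadjusted p = 0.0449). Psmd14, the deubiquitinase Rpn11, had the lowest difference of this group, at 9.43, 11.9 and 11.8 FPKM in p21TKO, against 9.56, 8.45 and 10.8 FPKM in DKO (log2 difference 0.18). Psmd1, a large scaffold subunit, stood at 5.53, 13.04 and 9.58 FPKM in p21TKO, against 8.21, 5 and 10.5 FPKM in DKO, with the same lowest libraries as Psmb7.

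**Figure D4:**
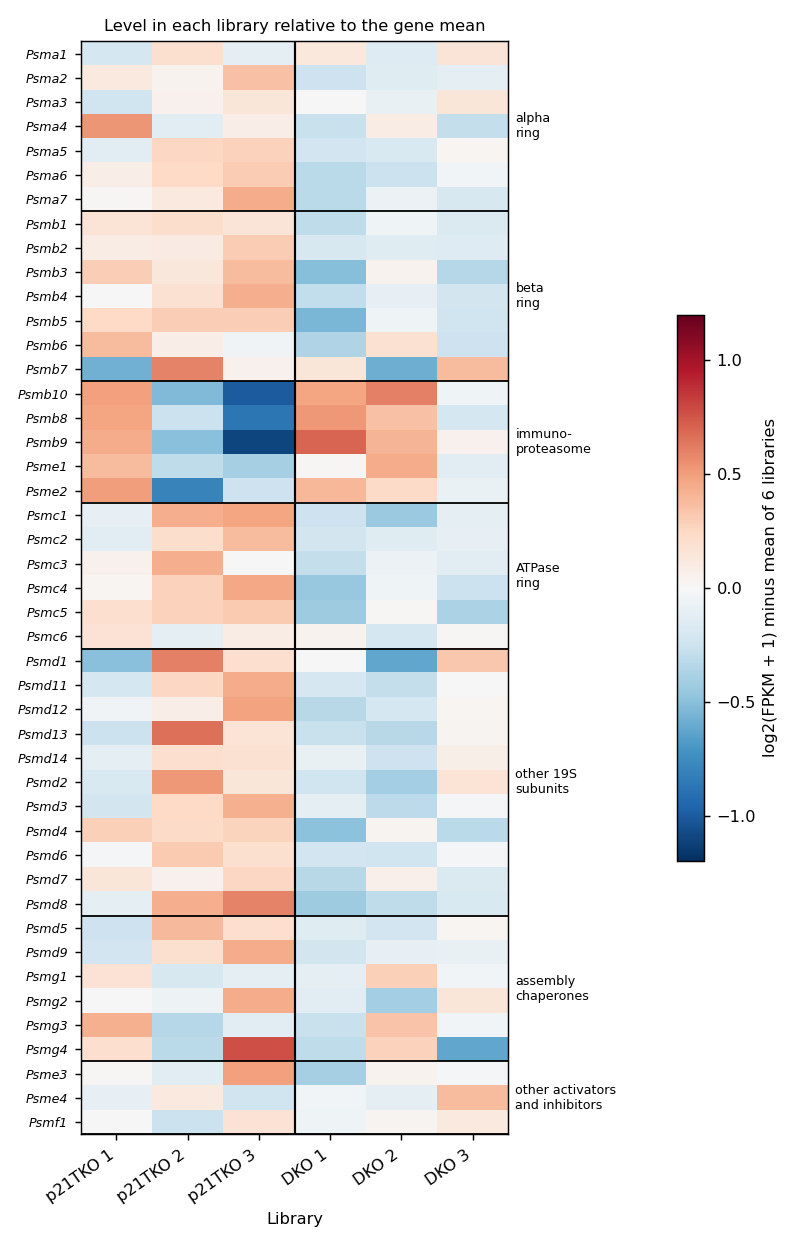
Level of each of the 45 tested proteasome genes (rows, grouped by role) in each library (columns, p21TKO left of DKO). Colour is log2(FPKM + 1) minus the mean of that gene over the 6 libraries, with the scale from -1.2 to 1.2. The immunoproteasome rows are blue in p21TKO replicates 2 and 3 and red in replicate 1, and most constitutive rows are blue in DKO replicate 1 and red in p21TKO replicates 2 and 3.

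Seen by library, the constitutive subunits had centred medians of 0.00, 0.23 and 0.28 in p21TKO replicates 1 to 3, against -0.26, -0.15 and -0.11 in DKO replicates 1 to 3. Thus p21TKO replicate 1 was nearest to DKO. The 6 hepatocyte markers summed to 48893, 56352 and 53713 in p21TKO replicates 1 to 3, against 39099.9, 47527 and 37917 in DKO replicates 1 to 3 (FPKM). Of these markers only Alb and Serpina1a had groups without overlap, and Ttr and Cps1 had log2 differences of -0.41 and -0.10. The part of hepatocyte content in these differences was not tested. Of the 31 genes, 18 were highest in p21TKO replicate 3 and 9 in p21TKO replicate 2, while 18 were lowest in DKO replicate 1 and 10 in DKO replicate 2. Without p21TKO replicate 1 the median log2 difference was 0.45, and the smallest adjusted p of any member was 0.062 (limma). The variation within groups was larger for the immunoproteasome genes, with a median coefficient of variation of 52.2% in p21TKO and 23.3% in DKO, than for the constitutive subunits, with 15.6% and 11.7%.

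Exon length moved with the levels in single libraries. Across the 45 tested members, Spearman's rho between union exon length and centred level was -0.52, 0.19 and -0.11 in p21TKO replicates 1 to 3, against 0.34, -0.31 and 0.49 in DKO replicates 1 to 3. The same rho over all tested genes was -0.16, 0.02 and -0.10 in p21TKO and 0.23, -0.14 and 0.28 in DKO. Short members thus stood relatively high in p21TKO replicate 1 and DKO replicate 2 and long ones relatively high in DKO replicates 1 and 3. These are descriptions across genes, which share libraries, and the part of length in the differences was not tested.

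Genes for assembly and for other activators showed no common direction. Of 6 tested assembly chaperone genes, 4 had higher values (median log2 difference 0.25) and none had groups without overlap. Psmd9, a base assembly chaperone, stood at 4.54, 6.41 and 7.83 FPKM in p21TKO, against 4.58, 5.05 and 5.12 FPKM in DKO (log2 difference 0.27, SE 0.20, limma adjusted p = 0.65), and 25.5% of its exon length overlaps Gm26745 on the opposite strand. Psmg4, a core assembly chaperone, stood at 22.9, 15.6 and 34.5 FPKM in p21TKO, against 15.9, 24.3 and 12.5 FPKM in DKO (log2 difference 0.43, SE 0.36, limma adjusted p = 0.68) with wide spread in both groups. Psme3, which encodes the nuclear activator PA28 gamma, stood at 20.5, 18.6 and 28.9 FPKM in p21TKO, against 15.2, 20.9 and 20.1 FPKM in DKO (log2 difference 0.25, SE 0.24, limma adjusted p = 0.724). Psme4, which encodes the activator PA200, stood at 9.26, 10.9 and 8.3 FPKM in p21TKO, against 9.74, 9.14 and 13.3 FPKM in DKO (log2 difference -0.15, SE 0.21, limma adjusted p = 0.802). Leaving out 1 library moved these log2 differences, with 0.12 for Psmd9, 0.15 for Psmg4 and 0.07 for Psme3 without p21TKO replicate 3, and 0.00 for Psme4 without DKO replicate 3. The other extremes were 0.45 for Psmd9 without p21TKO replicate 1, and 0.70 for Psmg4, 0.38 for Psme3 and -0.25 for Psme4 without p21TKO replicate 2. Psmf1, an inhibitor of the core, had a log2 difference of -0.07.

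The remaining 5 members had a mean under 1 FPKM and were not tested. Psma8, an alpha subunit of the testis, stood between 0.148 and 0.29 FPKM. Psmc3ip, a meiotic recombination factor that shares only the name, stood between 0.124 and 0.447 FPKM. Psmd10 (gankyrin), an X-linked base chaperone gene, stood at 1.09, 0.267 and 0.101 FPKM in p21TKO, against 1.67, 1.2 and 0.092 FPKM in DKO, so its levels ran over a wide range within each group. Psmb11, the thymus subunit, and Psme2b were at 0 in each of the 6 libraries, and 3 reads correspond to 0.0231 to 0.0323 FPKM for Psmb11 and 0.132 to 0.185 FPKM for Psme2b. These limits cover counting error only.

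Genes that act beside the proteasome followed the constitutive subunits in part. Of 15 tested partner genes outside the name rule, 10 had higher values (median log2 difference 0.14) and 0 passed. Adrm1, the ubiquitin receptor Rpn13 of the cap, stood at 18.7, 17.4 and 23.6 FPKM in p21TKO, against 12.7, 18.3 and 14.4 FPKM in DKO (log2 difference 0.38). Sem1, the smallest cap subunit, stood at 21.6, 10.5 and 11.8 FPKM in p21TKO, against 11.01, 17.6 and 12.7 FPKM in DKO (log2 difference 0.04). Pomp, the assembly factor of the core, stood at 20.5, 16.4 and 12.9 FPKM in p21TKO, against 18.7, 19.2 and 18.96 FPKM in DKO (log2 difference -0.20). Txnl1, a thioredoxin of the cap, stood at 17.9, 16.2 and 19.8 FPKM in p21TKO, against 11.8, 14.1 and 13.8 FPKM in DKO without overlap (log2 difference 0.41, SE 0.18, limma adjusted p = 0.523). Ubqln4, a shuttle factor, also had p21TKO libraries above DKO (log2 difference 0.32). Usp14 of the same list had all p21TKO libraries below DKO (log2 difference -0.25). Groups were thus apart upward for 2 of the 15 and downward for 1, against 6.93% and 8.49% of all tested genes.

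Of 9 tested genes for ubiquitin and its handling, 8 had higher values and 0 passed. Ubb, a polyubiquitin gene, stood at 313, 337 and 353 FPKM in p21TKO, against 219.9, 239 and 186 FPKM in DKO, with all p21TKO libraries above DKO (log2 difference 0.64, SE 0.26, limma adjusted p = 0.523). Ufd1, a cofactor of the segregase VCP, likewise did not overlap (log2 difference 0.42).

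Regulators of proteasome genes, a list of transcription factors with their partners and enzymes, mostly did not share the direction of the subunits. Transcript levels do not measure the activity of these factors. Of 7 tested regulators, 6 had lower values (median log2 difference -0.15) and 0 passed. Nfe2l1, which encodes NRF1, the factor that raises proteasome genes when degradation is impaired, stood at 20.96, 20.4 and 15.1 FPKM in p21TKO, against 23.7, 21.99 and 23.6 FPKM in DKO (log2 difference -0.30, SE 0.20, limma adjusted p = 0.623). All p21TKO libraries were below DKO. Nfe2l2, which encodes NRF2, stood at 8.63, 9.1 and 9.81 FPKM in p21TKO, against 13.2, 11.1 and 12.1 FPKM in DKO, also without overlap (log2 difference -0.36, SE 0.16, limma adjusted p = 0.527). Its small Maf partner gene Mafg had a log2 difference of -0.37 (-0.22 without p21TKO replicate 3), and Ddi2, the protease that activates NRF1, stood at 15.7, 17.1 and 16.02 FPKM in p21TKO, against 17.1, 15.4 and 18.9 FPKM in DKO (log2 difference -0.07).

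Class I antigen processing genes, which act after the immunoproteasome, had lower values in 7 of 9 (median log2 difference -0.21), and 0 passed. Among libraries with Y-linked transcripts, however, 7 of the 9 were higher in p21TKO (median 0.31). Among those without, 3 of the 9 were higher (median -0.50). Each of these comparisons has 1 library in an arm and was not tested. Tap1, a subunit of the peptide transporter, stood at 3.47, 2.2 and 2.46 FPKM in p21TKO, against 3.69, 3.56 and 3.04 FPKM in DKO (log2 difference -0.27, SE 0.17, limma adjusted p = 0.608). Tap2, its other subunit, stood at 6.28, 3.24 and 3.48 FPKM in p21TKO, against 5.39, 6.23 and 3.62 FPKM in DKO (log2 difference -0.21), and Tapbp, the tapasin gene, at 27.6, 18.3 and 13.1 FPKM in p21TKO, against 30.3, 28.8 and 17 FPKM in DKO (log2 difference -0.37). B2m, the light chain of class I molecules, stood at 3169, 1381 and 1137 FPKM in p21TKO, against 2451, 2677 and 1741 FPKM in DKO (log2 difference -0.40, SE 0.47, limma adjusted p = 0.77). For Tap1, Tap2 and B2m, p21TKO replicates 2 and 3 lay below all DKO libraries and replicate 1 did not, and for Tapbp only p21TKO replicate 3 did. The exceptions in the list were Calr and Pdia3, chaperones of the endoplasmic reticulum with wider roles. Calr stood at 283, 367 and 473 FPKM in p21TKO, against 182, 235 and 187 FPKM in DKO (log2 difference 0.87, SE 0.30, limma adjusted p = 0.523), and Pdia3 at 201, 147 and 213 FPKM in p21TKO, against 113, 148 and 122 FPKM in DKO (log2 difference 0.54).

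The interferon list, which holds signalling genes and genes that interferon induces, varied more. Of its 17 tested genes, 13 had lower values (median log2 difference -0.17) and 0 passed. Among libraries with Y-linked transcripts 9 of the 17 were higher in p21TKO (median 0.20), and among those without 3 were (median -0.37), which was not tested. The receptor and kinase genes Ifngr1, Ifngr2, Jak1 and Jak2 had log2 differences of 0.34, -0.22, 0.18 and -0.17. Irf1, an interferon-induced transcription factor gene, stood at 3.53, 7.36 and 3.56 FPKM in p21TKO, against 3.15, 3.24 and 4.64 FPKM in DKO (log2 difference 0.27), highest in p21TKO replicate 2. Nlrc5, the class I transactivator gene, stood at 1.84, 2.03 and 1.87 FPKM in p21TKO, against 2.65, 1.78 and 2 FPKM in DKO (log2 difference -0.10). Cxcl9, a chemokine gene induced by interferon gamma, stood at 2.23, 0.361 and 0.11 FPKM in p21TKO, against 5.02, 1.45 and 2.1 FPKM in DKO (log2 difference -1.08, SE 0.49, limma adjusted p = 0.531), and Gbp7, a guanylate-binding protein gene, had a log2 difference of -0.77. Without DKO replicate 1 the log2 differences were -0.70 for Cxcl9 and -0.39 for Gbp7. Isg15, a ubiquitin-like gene induced by type I interferon and chosen after its values were seen, stood at 23.3, 6.88 and 2.73 FPKM in p21TKO, against 30.7, 17.6 and 15.5 FPKM in DKO. Ifng itself was at or below 0.129 FPKM in all libraries.

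**Figure D5:**
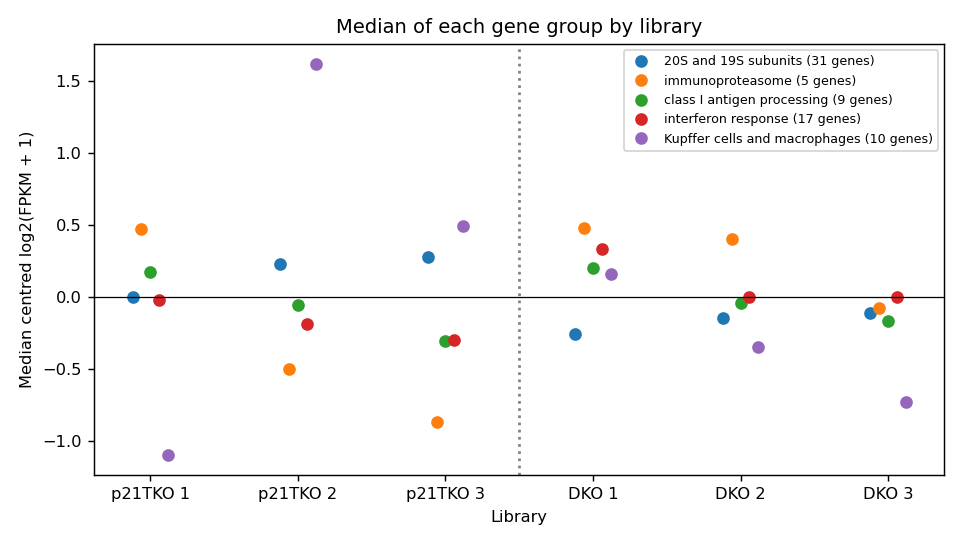
Median over genes of log2(FPKM + 1), centred on the mean of each gene over the 6 libraries (y axis), for 5 gene groups (colours) in each library (x axis, p21TKO left of DKO). The immunoproteasome median is -0.50 and -0.87 in p21TKO replicates 2 and 3 and 0.47 in replicate 1, and the Kupffer cell and macrophage median is 1.62, 0.49 and -1.10 in the same libraries.

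Markers of cells that can hold the inducible form differed in direction between cell types. The 12 T and NK cell markers summed to 1.63, 2.72 and 1.05 in p21TKO replicates 1 to 3, against 5.52, 4.46 and 2.98 in DKO replicates 1 to 3 (FPKM). None of them reached a mean of 1 FPKM. Cd3e and Cd3g, which encode CD3 subunits of the T cell receptor complex, were at 0 in p21TKO replicates 2 and 3, in that order. These genes held at most 10 and 12 reads in a library, in the same order. The NK cell receptor genes Klrb1c and Ncr1 were at 0 in p21TKO replicate 1 and DKO replicate 3, in that order. The 4 B cell markers summed to 0.44, 0.2 and 0.09 in p21TKO replicates 1 to 3, against 0.77, 0.98 and 0.84 in DKO replicates 1 to 3 (FPKM, as in the sums that follow), and the 5 dendritic cell markers summed to 0.53, 0.34 and 0.21 in p21TKO replicates 1 to 3, against 0.55, 0.61 and 0.55 in DKO replicates 1 to 3. The 10 Kupffer cell and macrophage markers summed to 40.4, 369.5 and 203 in p21TKO replicates 1 to 3, against 124, 85.1 and 53.7 in DKO replicates 1 to 3, with all 10 higher in mean value and 0 called. The 8 neutrophil markers summed to 24.2, 510.3 and 211 in p21TKO replicates 1 to 3, against 9.69, 27.1 and 11.9 in DKO replicates 1 to 3, and the 6 endothelial markers summed to 5.95, 53.1 and 25.5 in p21TKO replicates 1 to 3, against 14.3, 8.42 and 9.35 in DKO replicates 1 to 3. The T and NK cell and B cell sums were thus lower in all p21TKO libraries than in any DKO library. Among their markers Ptprc, Gzma, Gzmb, Ncr1, Cd79a and Ms4a1 had overlapping groups, and Ptprc was highest in p21TKO replicate 2 (0.483 FPKM). The dendritic sums of p21TKO replicate 1 and DKO nearly touched, and among those markers only Clec9a had groups without overlap, with ratios of means of 1.21 for Flt3 and 1.02 for Siglech. Macrophage, neutrophil and endothelial sums were higher in p21TKO replicates 2 and 3 than in any DKO library, and the part of each in the immunoproteasome levels was not tested. No marker of these lists was at 0 in all 6 libraries.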

How the data were processed

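Liver polyA RNA libraries (3 labelled p21TKO, 3 labelled DKO) were analysed from 1 table of FPKM values per gene that the authors deposited. The submitters' processing notes list HISAT2 2.0.5 and fastp, with CASAVA 1.8, then DESeq2 1.20.0 and featureCounts 1.5.0-p3. A human build is named there, although identifiers are those of mouse genes. The build is not settled, and coordinates are those of GENCODE M21 (GRCm38) by gene identifier (55480 of 55573 matched). Values of log2(FPKM + 1) were tested with limma 3.58.1 (R 4.3.3, variance trend) for the 9538 genes with a mean of at least 1 FPKM over the 6 libraries, with Benjamini-Hochberg adjustment over them and a threshold of 0.05; fold changes on this scale understate those of low genes. Whole reads were recovered as FPKM times exon length, with 99.3% of values whole within 0.02 reads, and tested with voom as an alternative. Tested members held 126 to 5460 reads in a library. Ratios were compared by exact permutation (scipy 1.17.1).

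The members and lists were chosen with earlier results of these data known. Named genes were the immunoproteasome members, their catalytic partners, the pair of tested genes with the smallest p in each role or list, and fixed pathway genes (Pomp, Adrm1, Sem1, Nfe2l1, Ddi2, Tap1, Tap2, Tapbp, B2m, Irf1 and Nlrc5); other genes are named for a count or an exception. Of 114 list genes, 113 were matched by symbol; some are not reported here by name. Copies with hyphenated names (4 genes, at most 2 reads in a library) were left out. Alternatives changed the pseudocount, filter, scaling, variance trend, a term for Y-linked transcripts, the replicate block and single libraries.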

Additional observations from a re-analysis of the deposited data

Results flagged for a closer look

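For 6 of the 45 tested members p21TKO and DKO libraries did not overlap within either Y-linked class, and the direction was opposite between the classes. The share of all tested genes with this pattern was not counted. Each class sets 1 library against 2, so such a split arises easily by chance. The count therefore does not set these members apart from other genes. The classes were libraries with Y-linked transcripts (p21TKO replicate 1 against DKO replicates 2 and 3) and without them (p21TKO replicates 2 and 3 against DKO replicate 1). Members that changed sign but overlapped in a class, such as Psmb10 (0.21 with and -1.24 without) and Psme1 (0.22 and -0.37), were not counted. The gap between the p21TKO minus DKO differences (log2 FPKM + 1), with minus without, was not tested. It was 1.49 for Psmb8 (0.41 with and -1.08 without), 1.73 for Psmb9 (0.22 and -1.50) and 1.35 for Psme2 (0.43 and -0.92), which are immunoproteasome genes. It was -0.38 for Psma3, an alpha ring gene (-0.27 and 0.11). For the base chaperone genes Psmd5 and Psmd9 it was -0.58 (-0.14 and 0.44) and -0.67 (-0.14 and 0.54).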

How the results depend on the processing

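No member was called in any of the 15 settings, and the smallest adjusted p of a member was 0.062 (limma, without p21TKO replicate 1). Of all genes, 7 were called; this was 1 with no filter, 4 with a mean of at least 5 FPKM, 1 with voom, 10 with a pseudocount of 0.1, 9 with a term for Y-linked transcripts and 0 with the replicate block, in which libraries with the same number were paired. Same-numbered libraries had correlations of their deviations from the group means of -0.44, -0.49 and -0.07. With so few libraries in a group, these cannot show whether same-numbered libraries share a preparation, which is not labelled. Leaving out 1 library gave 1 to 495 calls: 495 without p21TKO replicate 1, 2 without p21TKO replicate 2, 3 without p21TKO replicate 3, and 4, 6 and 1 without DKO replicates 1, 2 and 3. The median log2 difference of the constitutive subunits ranged from 0.29 to 0.45 and that of the immunoproteasome from -0.78 to -0.28 when 1 library was left out; other settings gave -0.51 to -0.34 for the immunoproteasome. The Psmb8, Psmb9 and Psmb10 log2 ratio differences ranged from -1.36 to -0.66, -1.35 to -0.78 and -1.45 to -0.32, with paired exact permutation p of 0.25, 0.25 and 0.75 under the block. Psmb7 (0.04) ranged from -0.24 to 0.34 when 1 library was left out, and reversed to -0.15 with the Y-linked term, -0.24 without p21TKO replicate 2 and -0.24 without DKO replicate 2; the cause was not tested. Without p21TKO replicate 1 the cell markers Marco (3.58), S100a8 (4.62), S100a9 (3.98), Pecam1 (1.49) and Lyve1 (1.67) passed the limma test. Depth limits what can be said of the 5 members under 1 FPKM.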
